A study of Mus musculus with 4 samples.

Results

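The 10 genes described here are the Notch receptors Notch1, Notch2 and Notch3, the ligands Dll1, Dll3, Jag1 and Jag2, and the target genes Hes1, Hes5 and Hey1. Accessible chromatin was measured by ATAC-seq, in which a transposase cuts and tags open DNA, in neurospheres grown from the hippocampus of newborn male C57BL/6 mice. Neurospheres are floating clusters of neural progenitor cells, here kept for 7 days in medium containing 20 ng/ml of FGF2 and of EGF, with the cells of 1 mouse plated in 2 wells. The 2 Fgf13cko cultures carried the hGFAP-Cre transgene and a floxed X-linked Fgf13 allele (hGFAPCre+, Fgf13 flox/y), and the 2 control cultures from littermates carried the same transgene with an intact allele (hGFAPCre+, Fgf13+/y). Cre was thus present in both groups, under the human GFAP promoter, which is known to be active in radial glia, and the share of cells that lost Fgf13 was not measured here. All rows of the deposited table of merged regions that name one of these genes as nearest were taken, each region by itself. They came to 30 of 29121 regions, 8 promoter regions within 1 kb of a start site and 22 distal regions. Jag2 had 0 rows, so 9 of the 10 genes were measured. Whether the 2 libraries of a genotype stem from different animals is not stated, so p-values measure the spread between these libraries, which may be partly technical.

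Notch signalling runs between touching cells: a Delta or Jagged ligand on one cell leads to cleavage of a Notch receptor on its neighbour, and the freed intracellular part of the receptor joins the DNA-binding protein RBPJ at target genes. Hes1, Hes5 and Hey1 encode repressors that are switched on this way and hold back proneural genes, which keeps neural progenitors undifferentiated. Dll1 is known to be raised in cells that are leaving the progenitor state, and in the hippocampus the pathway is known for maintaining the stem cells of the dentate gyrus.

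The start-site windows of these genes were searched for RBPJ letters, and 3 are printed because their regions gave the smallest promoter difference (Hes5) and the largest positive and negative promoter differences (Dll1 and Notch2). RefSeq windows of 300 bases on GRCm38.p6, from 250 before the start site to 50 after it, were found for 8 of the 10 genes, Hes1 and Hey1 not among them. Capitals mark TGGGAA, the core letters of the RBPJ motif, on either strand. The Hes5 window lies on the plus strand at chr4:154960673-154960972 and the Notch2 window on the plus strand at chr3:98013288-98013587. Dll1 has 2 windows on the minus strand, for 2 start sites, both inside its promoter region. The one printed is at chr17:15376883-15377182 and the other, not printed, at chr17:15375774-15376073.
Hes5: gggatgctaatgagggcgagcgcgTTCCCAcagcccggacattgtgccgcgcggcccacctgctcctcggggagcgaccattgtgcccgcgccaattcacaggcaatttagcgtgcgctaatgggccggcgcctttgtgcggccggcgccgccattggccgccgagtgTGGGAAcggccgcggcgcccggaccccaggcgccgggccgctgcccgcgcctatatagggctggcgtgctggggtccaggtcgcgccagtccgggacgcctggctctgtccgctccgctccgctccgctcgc
Dll1: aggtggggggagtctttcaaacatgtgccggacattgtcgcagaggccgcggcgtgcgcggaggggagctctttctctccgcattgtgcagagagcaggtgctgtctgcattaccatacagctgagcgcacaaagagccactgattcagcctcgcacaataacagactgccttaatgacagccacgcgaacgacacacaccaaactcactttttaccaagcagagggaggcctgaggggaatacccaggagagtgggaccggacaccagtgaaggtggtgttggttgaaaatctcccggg
Notch2: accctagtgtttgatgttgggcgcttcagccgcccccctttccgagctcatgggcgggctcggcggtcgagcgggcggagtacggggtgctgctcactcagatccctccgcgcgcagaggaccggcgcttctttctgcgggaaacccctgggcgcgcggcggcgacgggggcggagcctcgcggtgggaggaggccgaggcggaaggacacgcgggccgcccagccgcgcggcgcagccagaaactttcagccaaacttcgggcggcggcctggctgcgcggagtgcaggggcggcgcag
The Hes5 window held 2 matches, 226 and 82 bases before the start site, and all 300 bases lay inside its measured promoter region. The other windows, 2 of them for Dll1, held 0 matches to these letters. Among all 32851 RefSeq windows, 25.6% held at least 1 match and 3.79% at least 2. CACNAG, letters bound by Hes proteins, matched on either strand in the windows of Notch1, Notch2, Notch3 and Dll1 (3, 1, 2 and 1 matches, a pair of the Notch1 matches overlapping on opposite strands), against 42.5% of all windows. CACGTG, an E-box that reads the same on both strands, matched in 0 of these windows, against 7.15% of all.

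Nuclear regions held 2553917 and 2628512 tags in Fgf13cko replicates 1 and 2, against 2782014 and 3245487 in control replicates 1 and 2. Mitochondrial DNA took 9.54% and 9.19% of all tags in Fgf13cko libraries and 23.4% and 27.0% in control libraries; it was left out of the scaling. Neural progenitor marker genes all had a promoter region (6 of 6), with summed normalised tags of 1590 and 1270 in Fgf13cko and 1160 and 1380 in controls. Endothelial markers had one in 0 of 4 genes, and markers of pericytes and smooth muscle, cells known for Notch3, had one in 3 of 4 (summed 141 and 135 in Fgf13cko, 121 and 131 in controls). Neuronal markers had one in 3 of 5, with no region at Dcx or Rbfox3, summed at 514 and 523 in Fgf13cko and 303 and 334 in controls. Of the 4 neuronal promoter regions 2 were called higher, at Map2 and Syt1. Among all promoter regions 1.24% were called higher and 0.854% lower. The part of neurons in the Notch gene results was not tested. Markers of astrocytes (2 of 4 genes) and of the oligodendrocyte lineage (3 of 4) had 0 called promoter regions, as did the single microglial region (1 of 4 genes). Of the 4 regions nearest to Fgf13 itself, 0 passed the threshold in edgeR (1 had an unadjusted p under 0.05; log2 fold changes from -0.56 to 0.80), and the labels do not name the floxed exon, so the deletion was not checked here.

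Fgf13cko replicate 1 stood apart in narrow regions, and this bears on the Notch genes. Among all distal regions of up to 400 bp its normalised tags lay at a median log2 ratio of -2.22 to Fgf13cko replicate 2, against 0.41 between control replicates 1 and 2. All 8 Notch gene regions under 600 bp were lower in Fgf13cko replicate 1 than in replicate 2, by 1.44 to 5.78 times. At the narrowest, 14.4 kb upstream of Hes5 and 291 bp wide, the tags were 7.98 and 46.1 in Fgf13cko replicates 1 and 2, against 35.5 and 38.1 in the controls. The region 2.24 kb downstream of the Hey1 start, 317 bp wide, repeated this with 10.3 and 39.8 in Fgf13cko, against 35.5 and 38.1 in controls. Of the 22 regions of 600 bp or more, 5 were lower in Fgf13cko replicate 1, and both regions called below belong to these 22. Wide regions leaned the other way. Among all distal regions of 1001 to 1500 bp the median log2 ratio of Fgf13cko replicate 1 to replicate 2 was 0.25. Between control replicates 1 and 2 it was -0.03. The called Jag1 region, 1412 bp wide, had an Fgf13cko log2 ratio of 0.30, and the called Notch2 region, 796 bp wide, had 0.08.

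**Figure D1:**
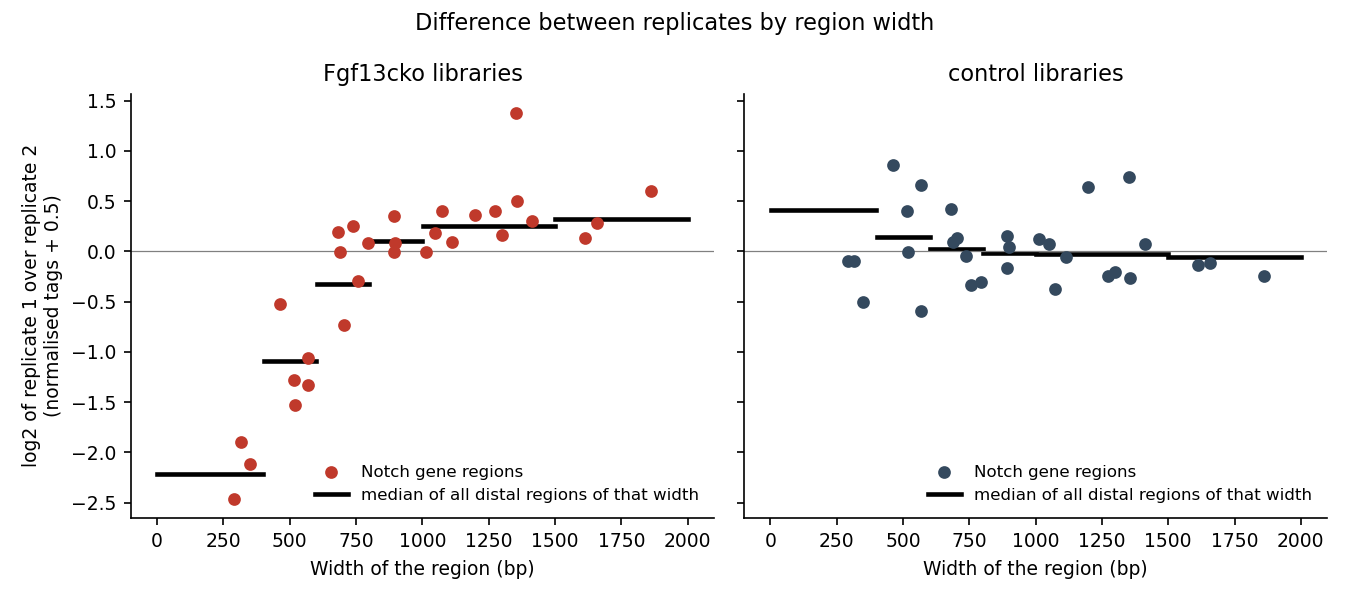
Log2 ratio of replicate 1 to replicate 2 (normalised tags plus 0.5) against region width, for Fgf13cko libraries on the left and control libraries on the right. Points are the 30 Notch gene regions and black bars the median of all distal regions in a width class, the widest class being drawn only in part; the Fgf13cko points fall to between -1.90 and -2.46 in the 3 narrowest regions, while the control points there stay between -0.50 and -0.10.

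Promoter regions of the Notch genes showed no difference past the threshold. Accessibility was compared per region with edgeR's quasi-likelihood test, adjusted over all 28814 tested regions (Benjamini-Hochberg, threshold 0.05). Of the 8 promoters 0 were called higher and 0 lower, where 1.24% of all promoter regions were called higher and 0.854% lower. In the DESeq2 Wald test the number called was 0 as well. An unadjusted p under 0.05 in edgeR was found at 2 of the 8, against 1741 of all 11710 tested promoter regions. The median log2 fold change of Fgf13cko over control was -0.11 for the 8, and -0.09 for all tested promoter regions. A more open region cannot be told apart here from a larger share of cells in which it is open.

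Among the receptors, the Notch2 promoter (chromosome 3, 98013138 to 98014210, in the 5' UTR of exon 1) held 100 and 75.5 normalised tags in Fgf13cko replicates 1 and 2, against 114 and 147 in control replicates 1 and 2. Both Fgf13cko libraries lay below both controls, but the difference missed the threshold (log2 fold change -0.58, SE 0.23, adjusted p = 0.181). Notch3, a receptor of progenitors and of the cells around blood vessels, had 77.5 and 29.4 in Fgf13cko, against 92.8 and 55.4 in controls (chromosome 17, 32165571 to 32166922). Those libraries overlapped, with a 95% interval from -1.49 to 0.55 around a log2 fold change of -0.47 (adjusted p = 0.583). Single libraries decided these receptor values: without Fgf13cko replicate 1 Notch3 was at -1.32 (adjusted p = 0.000498) and Notch2 at -0.80 (adjusted p = 0.00355), and without Fgf13cko replicate 2 Notch3 was at 0.12 (adjusted p = 0.760) and Notch2 at -0.35 (adjusted p = 0.206).

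Notch1, the receptor best known in neural stem cells, had no promoter row of its own, because the region over its start site carries the name of the predicted gene Gm35978, whose start is nearer. That region (chromosome 2, 26503595 to 26504230), singled out after its values were seen, held 47.9 and 81.8 tags in Fgf13cko, against 107 and 118 in controls. Again both Fgf13cko libraries were the lower ones without reaching the threshold (log2 fold change -0.78, SE 0.27, adjusted p = 0.124); without Fgf13cko replicate 2 the value was -1.19 (adjusted p = 8.57e-05) and without Fgf13cko replicate 1 it was -0.46 (adjusted p = 0.135).

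None of the ligand promoters passed either. Dll1, the ligand of cells leaving the progenitor state, had 237 and 216 tags at its promoter in Fgf13cko, against 152 and 167 in controls (chromosome 17, 15375712 to 15377324). The groups did not overlap, and the log2 fold change was 0.50 (95% interval 0.09 to 0.92, adjusted p = 0.140). With each library left out in turn it ranged from 0.43 to 0.61. Dll3, a Delta protein that is known to dampen Notch signalling within its own cell, had 50.2 and 44.0 in Fgf13cko, against 39.5 and 29.4 in controls (chromosome 7, 28301833 to 28302514; log2 fold change 0.45, adjusted p = 0.469). At the Jag1 promoter (chromosome 2, 137116368 to 137117666) 288 and 258 tags in Fgf13cko stood against 303 and 347 in controls, the Fgf13cko libraries being the lower ones (log2 fold change -0.25, adjusted p = 0.486). Groups without overlap were common among all promoter regions, 17.7% of which had both Fgf13cko libraries above both controls and 31.8% both below, so the 2 Notch gene promoters above and the 2 below are not set apart by it.

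Promoters of the target genes overlapped between the groups. Hes1, whose protein represses proneural genes, had 290 and 238 tags in Fgf13cko, against 221 and 240 in controls (chromosome 16, 30063985 to 30065642). Its log2 fold change was 0.19 with a 95% interval from -0.24 to 0.63 (adjusted p = 0.605). Hes5, a target known in neural progenitors of the brain, had 146 and 178 in Fgf13cko, against 149 and 187 in controls (chromosome 4, 154960416 to 154961172), with a log2 fold change of -0.05 and an interval from -0.52 to 0.42 (adjusted p = 0.913). This is the region that contains the printed window with the 2 TGGGAA matches. Hey1, which can pair with Hes1, had at its promoter (chromosome 3, 8666584 to 8667940) 292 and 206 in Fgf13cko, against 253 and 303 in controls (log2 fold change -0.16, interval -0.67 to 0.34, adjusted p = 0.722), and was at -0.44 without Fgf13cko replicate 1 (adjusted p = 0.0294) and at 0.11 without Fgf13cko replicate 2 (adjusted p = 0.628). For all 3 target genes the interval excludes a doubling or a halving of the promoter signal, while smaller changes in either direction lie within it.

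**Figure D2:**
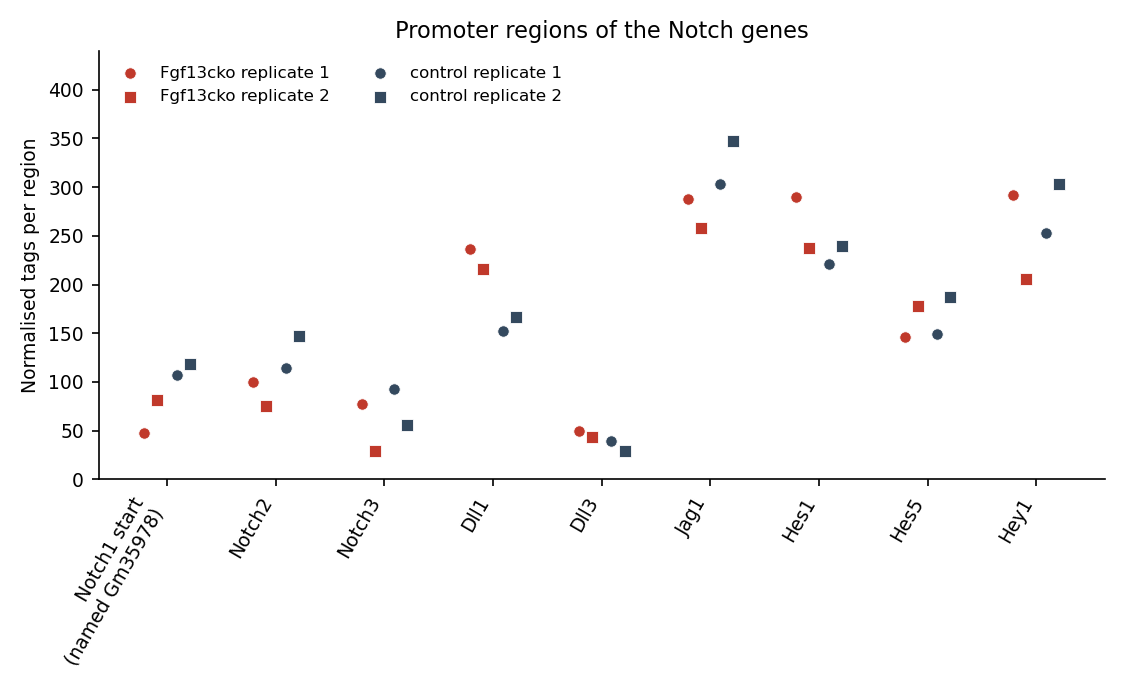
Normalised tags (tags divided by the relative effective library size) in the 8 promoter regions and in the region over the Notch1 start site, with 1 point per library, Fgf13cko in red and control in dark blue. Fgf13cko points lie above both controls at Dll1 and Dll3, below both at the Notch1 start, Notch2 and Jag1, and overlap them at Notch3, Hes1, Hes5 and Hey1.

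Compared per length, on the scale of normalised tags per kb of region, the promoters fell into a similar order in both groups. In Fgf13cko the levels were 214 for Hes5, 210 for Jag1, 183 for Hey1, 159 for Hes1, 140 for Dll1, 81.9 for Notch2, 69.1 for Dll3 and 39.5 for Notch3. Neighbours in that order overlapped between libraries except Dll1 and Notch2, and Dll3 and Notch3. In controls Jag1 led with 250, followed by Hes5 with 222, Hey1 with 205, Hes1 with 139, Notch2 with 122, Dll1 with 98.9, Notch3 with 54.8 and Dll3 with 50.5. Here Hey1 and Hes1, Notch2 and Dll1, and Dll1 and Notch3 were separated, and the other neighbours overlapped. Set against all tested promoter regions in the controls, the Jag1 promoter was denser than 89.6%, Hes5 than 86.4% and Hey1 than 83.9%, while Dll3 was denser than 14.3%. Density depends on how wide the merged region was drawn, which for these promoters ran from 682 bp at Dll3 to 1658 bp at Hes1.

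Away from the promoters, an intronic region of the ligand gene Jag1 and an intronic region of the receptor gene Notch2 rose about equally in Fgf13cko. They were the 2 of 22 distal Notch gene regions called higher, and 0 were called lower. Over all 17104 tested distal regions, 8.80% were called higher and 2.44% lower, so 2 of 22 is close to the background. Another 3 distal regions had an unadjusted p under 0.05 without passing. With the 2 called, 5 of the 22 were under that p, against 4803 of all 17104 tested distal regions. The median log2 fold change was 0.03 over the 22 regions and 0.06 over all distal regions. Both Fgf13cko libraries lay above both controls in 6 of the 22 and below in 2, against 33.2% and 24.0% of all distal regions.

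The Jag1 region (chromosome 2, 137109442 to 137110853) lies in intron 2, 6.37 kb downstream of the start site. Jag1 encodes the ligand that stem cells themselves are known to display in neurogenic niches. The region held 670 and 544 normalised tags in Fgf13cko replicates 1 and 2, against 294 and 281 in control replicates 1 and 2, which came from 588 and 519 deposited tags in Fgf13cko and 298.5 and 325 in controls. Both Fgf13cko libraries were thus far above both controls, with means of 607 ± 89.3 in Fgf13cko and 288 ± 9.21 in controls (SD, n = 2 each; log2 fold change 1.08, SE 0.20, edgeR adjusted p = 0.0166). The call ended without control replicate 1 (log2 fold change 1.11, adjusted p = 0.321) and without control replicate 2 (1.05, adjusted p = 0.396), where 387 and 138 regions passed in all. It held without Fgf13cko replicate 1 (0.92, adjusted p = 1.09e-09) and without Fgf13cko replicate 2 (1.26, adjusted p = 1.56e-18), where 7012 and 10120 regions passed. In the authors' peak lists the highest fold enrichment over this region was 3.94 and 5.10 in Fgf13cko and 4.41 and 4.85 in controls, the authors' own value per peak.

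The other Jag1 regions reached up to 538 kb upstream. A region 316 kb upstream, which is denser in controls than 98.3% of distal regions, had 402 and 354 tags in Fgf13cko, against 286 and 272 in controls. It did not pass (log2 fold change 0.44, adjusted p = 0.210), except with a loess offset on abundance (0.47, adjusted p = 0.0339) and without Fgf13cko replicate 2 (0.57, adjusted p = 0.000695). The region 1.84 kb downstream, in the same intron as the called one, had 254 and 199 in Fgf13cko, against 213 and 240 in controls, with a log2 fold change of 0.00 (adjusted p = 0.996). Within intron 2 the groups were thus apart at 6.37 kb and overlapped at 1.84 kb; the difference between these regions was not tested. The remaining 4 Jag1 regions had log2 fold changes from -0.63 to 0.96 with 0 called.

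The called Notch2 region (chromosome 3, 98025768 to 98026563) lies in intron 1, 12.6 kb downstream of the start. Notch2 encodes a receptor known in neural stem cells. Its normalised tags were 109 and 103 in Fgf13cko, against 43.4 and 53.6 in controls. The libraries of each group lay close together and the groups far apart, with means of 106 ± 4.74 in Fgf13cko and 48.5 ± 7.21 in controls (SD, n = 2 each; log2 fold change 1.12, SE 0.23, edgeR adjusted p = 0.0228). In the DESeq2 Wald test the region missed the threshold (1.14, adjusted p = 0.0658), as it did without control replicate 1 (0.98, adjusted p = 0.263) and without control replicate 2 (1.29, adjusted p = 0.147). Leaving out Fgf13cko replicate 1 or 2 kept the call (adjusted p = 0.000426 and 3.68e-05).

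Further into intron 1 of Notch2, 29.8 kb from the start, 129 and 214 tags in Fgf13cko stood against 96.7 and 88.2 in controls. The Fgf13cko libraries were the higher ones but differed from each other (log2 fold change 0.89, adjusted p = 0.0742); without Fgf13cko replicate 1 the value was 1.21 (adjusted p = 1.33e-08). The regions at 7.21 and 50.2 kb had log2 fold changes of -0.19 and -0.17 and were not called. Inside the Notch2 gene there is also a region in intron 5 that the table names after Adam30 (chromosome 3, 98089537 to 98090357), singled out after its values were seen. It held 121 and 145 tags in Fgf13cko, against 77.0 and 67.5 in controls, and was called higher (log2 fold change 0.88, adjusted p = 0.0395), though not in the Wald test (adjusted p = 0.122), nor without control replicate 1 (adjusted p = 0.235) or control replicate 2 (adjusted p = 0.426). Another region named after Adam30, in intron 11 of Notch2, had 185 and 180 in Fgf13cko, against 138 and 140 in controls (0.39, adjusted p = 0.239). Of these 6 intronic regions of Notch2, 2 of them named after Adam30, 4 had both Fgf13cko libraries above both controls, where 33.2% of all distal regions did; the promoter had both below, as did 31.8% of all promoter regions.

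None of the 3 intron regions named after Notch1 passed, nor did 2 regions in its introns that the table names after Mir6996 (log2 fold changes 0.33 and -0.12, adjusted p = 0.585 and 0.791). The region 2.83 kb from the start, the widest of the 30, had 442 and 291 tags in Fgf13cko, against 336 and 398 in controls, with a log2 fold change of 0.00 (95% interval -0.54 to 0.54). At 16.2 kb the tags were 212 and 201 in Fgf13cko, against 221 and 215 in controls (log2 fold change -0.08, adjusted p = 0.845). The third region, 10.2 kb from the start and 350 bp wide, had 6.84 and 31.5 in Fgf13cko, against 20.7 and 29.4 in controls, and is among the narrow regions that were low in Fgf13cko replicate 1.

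Distal regions of the target genes gave 0 calls in edgeR among 8 regions. An unadjusted p under 0.05 was found at 1 of them, against 4803 of all 17104 tested distal regions. A distal region of Hes5, 12.3 kb upstream and denser in controls than 96.5% of distal regions, had 195 and 197 tags in Fgf13cko, against 199 and 179 in controls (log2 fold change 0.05, 95% interval -0.36 to 0.46). The smallest p for Hes1 was at a region 90.5 kb downstream of its start, with 62.7 and 58.7 in Fgf13cko, against 31.6 and 32.9 in controls. There the groups were apart, yet the adjusted p was 0.0994 (log2 fold change 0.91, SE 0.29). With each library left out in turn the log2 fold change ranged from 0.86 to 0.99. Closer to Hes1, at 5.34 kb, 66.1 and 55.6 tags in Fgf13cko stood against 55.3 and 57.1 in controls. The Hey1 region with the smallest p, 18.2 kb upstream, had 22.8 and 48.2 in Fgf13cko, against 27.6 and 17.3 in controls, and overlapped (log2 fold change 0.67, adjusted p = 0.487).

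**Figure D3:**
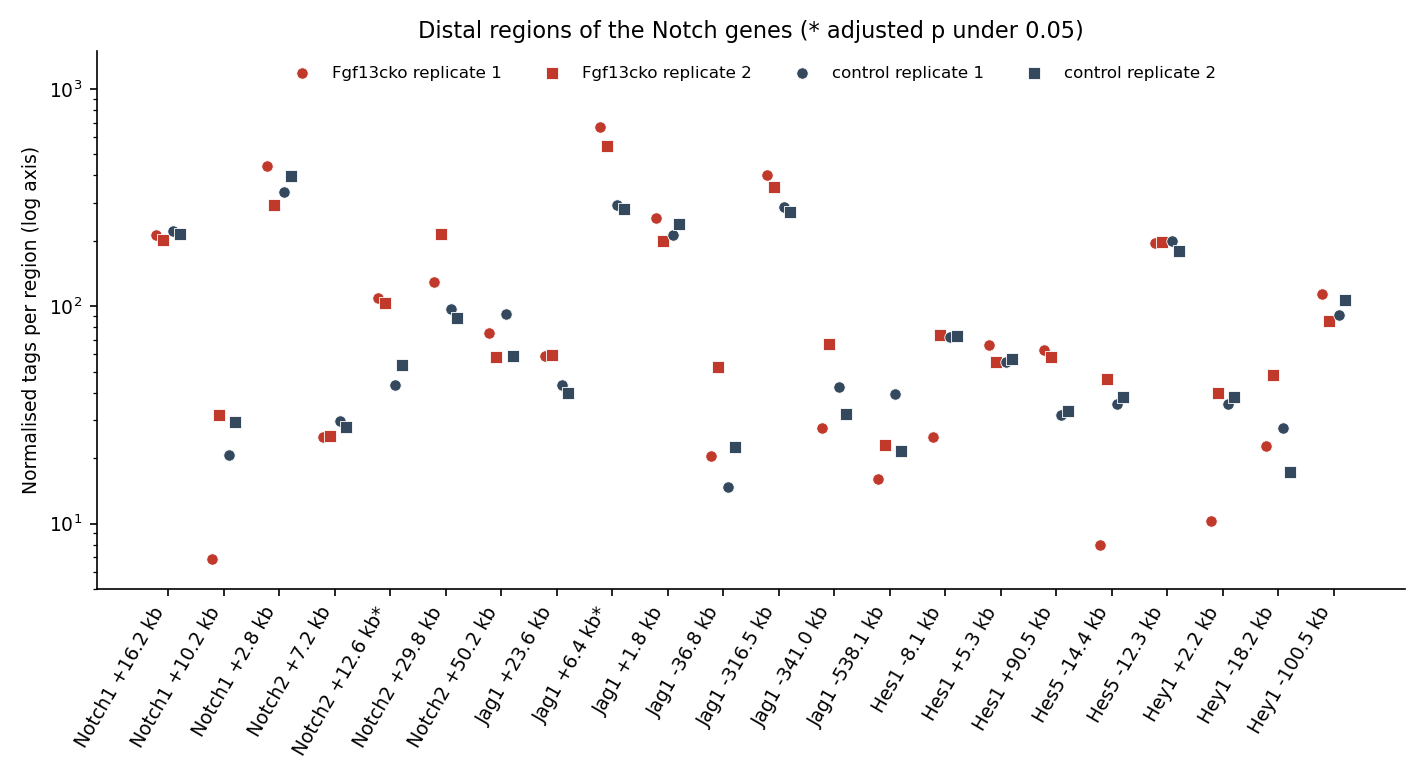
Normalised tags per library (log axis) in the 22 distal regions, labelled by gene and distance from its start site (plus is downstream), Fgf13cko in red and control in dark blue. The Jag1 region at 6.37 kb and the Notch2 region at 12.6 kb, marked with an asterisk, have both Fgf13cko points well above both control points. Fgf13cko replicate 1 is the lowest point at the narrow regions of Notch1 at 10.2 kb, Hes1 at -8.14 kb, Hes5 at -14.4 kb and Hey1 at 2.24 kb. It is also the lowest at the narrow Jag1 regions at -341 and -538 kb.

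**Figure D4:**
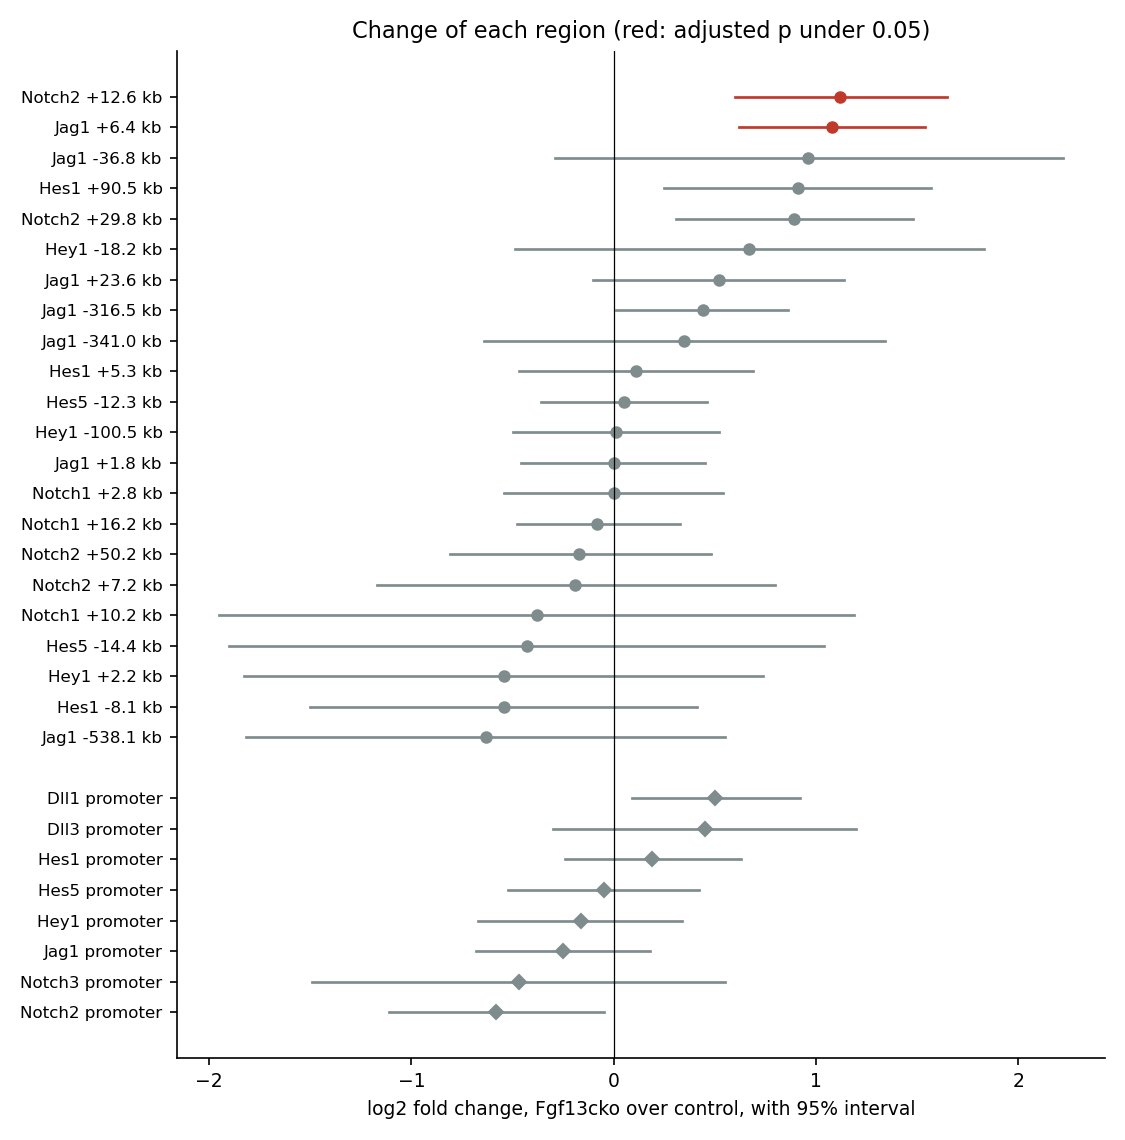
Log2 fold change of Fgf13cko over control with its 95% interval from edgeR for each of the 30 regions, distal regions above and promoters below, each sorted by size. The 2 regions past the threshold, in red, reach 1.12 at Notch2 and 1.08 at Jag1, and the widest intervals belong to narrow regions such as that 10.2 kb into Notch1 (-1.95 to 1.19).

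Summed per gene over all its distal regions, 0 of the 6 Notch genes with such regions passed in edgeR, and 2 had an unadjusted p under 0.05. Among all 8343 tested genes 7.62% were called higher and 4.22% lower, and 2369 had an unadjusted p under 0.05. Jag1 had 1520 and 1170 summed tags in Fgf13cko, against 956 and 947 in controls (log2 fold change 0.50, adjusted p = 0.0900), and passed in the Wald test (0.49, adjusted p = 0.0363). Notch2 had 357 and 360 in Fgf13cko, against 268 and 238 in controls (log2 fold change 0.50, adjusted p = 0.0748). Each of these 2 sums includes the called region of its gene, so it is not a separate result. How many of all genes had both Fgf13cko sums above both control sums was not counted. For Hes1 the sums were 163 and 169 in Fgf13cko and the same 163 and 169 in controls, and Hes5, Hey1 and Notch1 lay between -0.11 and -0.08 on the log2 scale.

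The rest of the pathway was described with 46 further genes that modify ligands and receptors, cut the receptor, degrade it or act with RBPJ, of which 37 had 84 regions. Their 34 promoter regions had 0 calls in edgeR, where 1.24% of all promoter regions were called higher and 0.854% lower. An unadjusted p under 0.05 was found at 3 of the 34, against 1741 of all 11710 tested promoter regions. The median log2 fold change of the 34 was -0.21, and that of all tested promoter regions -0.09. Of 49 tested distal regions 13 were called higher and 2 lower, which is 26.5% and 4.08%, with a median of 0.35, against 8.80% and 2.44% of all distal regions with a median of 0.06. Over promoter and distal regions together 1651 (5.73%) were called higher and 517 (1.79%) lower, a split that was 2172 higher and 1245 lower with a loess offset on abundance. Those 49 regions are not independent, since some genes hold many of them, Maml2 for example 5. The Wald test called 8 of the 83 tested regions, all higher, 2 passed without control replicate 1 and 1 without control replicate 2, and 26 and 35 without Fgf13cko replicates 1 and 2. The Maml2 region named next was the only one of the 15 that passed without either control, and the Maml3 region passed without control replicate 1 alone.

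Maml2 encodes a Mastermind coactivator of the RBPJ complex, and its intron 2 held the region with the smallest p of the list. At this region (chromosome 9, 13699162 to 13700125) there were 344 and 231 tags in Fgf13cko, against 66.1 and 86.5 in controls (log2 fold change 1.90, SE 0.25, adjusted p = 0.00525). Maml2 changed both ways: a region 8.78 kb downstream rose by 1.22, and one 56.2 kb upstream rose too (125 and 107 in Fgf13cko, against 63.2 and 52.8 in controls), and a region 16.2 kb upstream fell by 1.17 on the log2 scale, with 33.1 and 27.3 in Fgf13cko, against 63.2 and 72.7 in controls. These 3 regions lost the call in the Wald test (adjusted p = 0.0556, 0.0934 and 0.169 in that order). An intron 1 region of Maml3, its relative, rose by 1.32 (adjusted p = 0.0163).

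Lfng encodes the Fringe enzyme that adds sugars to Notch and shifts its response between Delta and Jagged ligands. A region 12.5 kb downstream of its start had 139 and 113 tags in Fgf13cko, against 49.4 and 44.1 in controls (log2 fold change 1.43, adjusted p = 0.00952). This region is named after Lfng as the nearest start, but is annotated to the end of another transcript than the one at the Lfng promoter. A region in intron 1 of Lfng had 299 and 269 in Fgf13cko, against 162 and 161 in controls (0.81, adjusted p = 0.0303). The Lfng promoter, with 104 and 147 in Fgf13cko and 92.8 and 83.0 in controls, did not pass (0.51, adjusted p = 0.227).

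Of 21 regions of 11 ubiquitin ligase genes, 3 distal ones rose: those of Neurl1a, the mouse neuralized gene (1.90, adjusted p = 0.0188), Dtx4, of the Deltex family (0.99, adjusted p = 0.0257), and Fbxw7, whose product targets the Notch intracellular part for degradation (0.84, adjusted p = 0.0342). The 21 hold promoter regions too. Over promoter and distal regions together 5.73% of all regions were called higher, and over distal regions alone 8.80%. In the Wald test Dtx4 (adjusted p = 0.0945) and Fbxw7 (adjusted p = 0.0655) missed the threshold. Dlk1, a membrane protein related to Delta, had 1 of 3 distal regions higher (1.27, adjusted p = 0.0417), which the Wald test did not call (adjusted p = 0.130). The regions of the gamma-secretase genes, which encode the complex that frees the intracellular part, lay between -0.35 and 0.04 with 0 of 7 called in edgeR and 0 at an unadjusted p under 0.05; 6 of the 7 are promoters, a class with 1.24% called higher and 0.854% lower. Rbpj itself had 3 tested regions and 0 called.

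**Figure D5:**
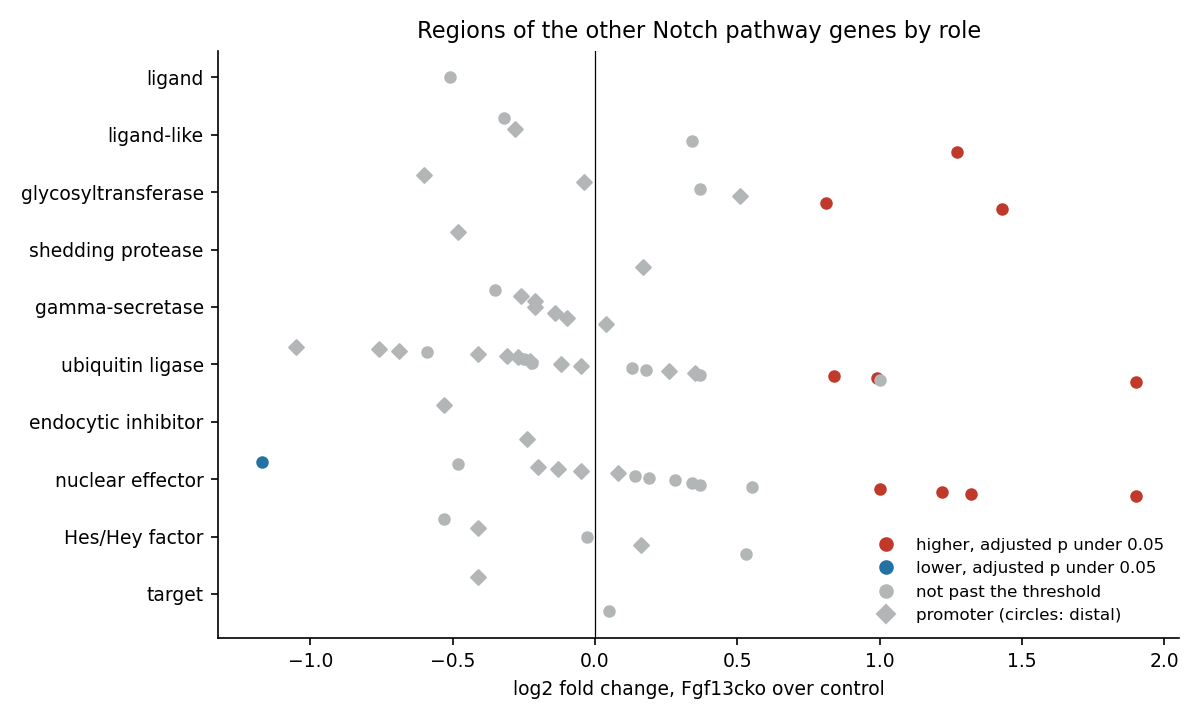
Log2 fold change of Fgf13cko over control for 66 of the 83 tested regions of the other Notch pathway genes, grouped by role (1 role is not shown), with diamonds for promoters and circles for distal regions. The 10 regions in red and 1 in blue passed the threshold and all are distal. The gamma-secretase regions lie between -0.35 and 0.04, and the largest rises of 1.90 are at Maml2 and Neurl1a.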

How the data were processed

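The deposited table holds estimated counts that the authors made with HOMER's annotatePeaks program in raw mode on merged broad peaks and mm10, per the file headers. They come in steps of 0.5, are not normalised, and were rounded to whole numbers here. The authors deposited 1 peak list per library, with a score, a fold enrichment (a ratio), a -log10 p and a -log10 q per peak. Also named, in the submitters' processing notes, are Picard, Bowtie2, DESeq2, HOMER and MACS2, with no roles given; the handling of the transposase offset and of duplicates is not given in the sources used here. The 2 mitochondrial regions were left out. Regions were tested with edgeR 4.0.16 (R 4.3.3; TMM, filterByExpr, robust glmQLFit, glmQLFTest, two-sided, Benjamini-Hochberg), with DESeq2 1.42.0 as an alternative, after the script was tested on simulated data. A promoter region overlaps 1 kb on either side of the nearest start site in the table; other rows are distal, and distal sums add them per gene. Normalised tags are counts divided by relative effective library size. Intervals are 95% intervals of the fit and cover the spread between these 4 libraries only. Per sample, the nuclear region totals in the report set the precision. Fgf13cko replicates differed by a chi-square of 5.60 per region and control replicates by 1.69, so none were merged. Members and gene lists were chosen with earlier results of these data known. Named by rule were all promoter regions, each gene's distal regions past the threshold and that with the smallest p, and called regions of the other pathway genes, of which some, counted in the totals, are not reported here; other named regions were chosen after their values were seen. Gene positions and promoter windows come from RefSeq on GRCm38.p6, which shares its coordinates with mm10.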

Additional observations from a re-analysis of the deposited data

Results flagged for a closer look

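Outside the merged regions, the peak lists held 37 further positions within 20 kb of the 10 genes. At 4 of them both Fgf13cko lists had a peak and neither control list did, and at 2 both control lists had a peak and neither Fgf13cko list did, which is why they are given here. The 4 were 2 positions near Jag1, 1 near Notch1 and 1 near Dll1. The Dll1 position (chromosome 17, 15365400 to 15366332) had the authors' fold enrichment at 3.71 and 3.65 in Fgf13cko replicates 1 and 2. Near Jag1, the positions at 137067643 to 137068190 and 137135913 to 137136198 on chromosome 2 had 4.49 and 3.54, and 3.11 and 3.38, in the Fgf13cko lists, and the Notch1 position (chromosome 2, 26516233 to 26516558) had 3.21 and 3.09. The 2 control positions lay near Jag2 and Hes5. At the Jag2 start site, where the table has no region, 0 Fgf13cko lists and 1 control list (replicate 2, fold enrichment 3.18) had a peak within 1 kb. The lists differ in length, with 64954 and 54373 peaks in Fgf13cko and 38006 and 47148 in controls, and a missing peak is not a measured absence of signal. No test was run on these positions, and how often either pattern occurs away from these genes was not counted.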

How the results depend on the processing

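Without each library in turn, regions passing ranged from 138 to 10120 over all regions (2168 as reported), from 0 to 4 of the Notch gene promoters (0), from 0 to 8 of their distal regions (2), from 1 to 35 of the other pathway regions (15), from 235 to 3797 of all distal sums (988) and from 0 to 3 of the Notch gene distal sums (0). Leaving out a control gave the low counts and leaving out an Fgf13cko library the high ones, the lone library being assumed to vary like the other group; the cause was not tested. The 4 promoters without Fgf13cko replicate 1 were Notch2 (-0.80), Notch3 (-1.32), Hey1 (-0.44) and Dll1 (0.43), and the 1 without Fgf13cko replicate 2 was Dll1 (0.61). The Wald test called 1 Notch gene distal region, 8 other pathway regions and 1 Notch gene distal sum. With a loess offset 3417 regions passed over all, and with distal regions limited to 20 kb 365 distal sums did. Some log2 fold changes took both signs when libraries were left out in turn: -1.83 to 0.31 at the Notch1 region 10.2 kb from the start, -2.15 to 0.32 at the Hes5 region at 14.4 kb, -0.20 to 0.12 at the Hes5 promoter, -1.32 to 0.12 at the Notch3 promoter, -0.44 to 0.11 at the Hey1 promoter, -0.25 to 0.02 at a Notch1 intron 2 region named Mir6996, -0.42 to 0.14 for the Notch1 distal sum and -0.05 to 0.02 for the Hes1 distal sum, which was 0.02 with mitochondrial regions kept and 0.01 within 100 kb. DESeq2 size factors, no filter on low counts and unrounded counts changed no call named here. The replicate numbers share no stated origin, and same-numbered deviations correlated at -0.236; with the replicate number as a block 3306 regions passed over all and 3 Notch gene distal regions, the added one being Notch2 at 29.8 kb (adjusted p = 0.0133); the region over the Notch1 start passed too (-0.82, adjusted p = 0.0317). The crossed pairing, chosen after seeing the data, gave 3304 regions, 1668 distal sums and 2 Notch gene distal sums. Narrow regions held few tags in Fgf13cko replicate 1, which limits what can be said of them.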
